A study of Homo sapiens with 9 samples.

Results

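SR proteins, the CLK and SRPK kinases that phosphorylate them, and NKTR with other splicing regulators were examined across PC3 xenografts given a topoisomerase I antibody-drug conjugate or vehicle. Many of these regulators, though not all, are arginine- and serine-rich (RS). The 34 genes were chosen by name as splicing regulators linked to topoisomerase I and CLK activity, at a time when results of the treated-against-vehicle comparisons were known. For that reason, their differences from vehicle are given as a description, and no p-value for them is printed. Of the 34, 31 were listed in both count tables, which share 16008 genes, and each of the 31 was tested in every comparison. SRSF12 was listed in 1 table alone, with 3, 22 and 4 counts in the PBS libraries and 8, 5 and 0 in the T-DXd-titled libraries, and was not tested. SRSF8 and LUC7L2 had no row under those names. The identifier of LUC7L2 (ENSG00000146963.13) was listed as C7orf55-LUC7L2, a readthrough name, and its values are given apart from the members.

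PC3 is an androgen-independent human line from a prostate cancer metastasis, and NSG mice lack mature lymphocytes but keep their own fibroblasts, vessels and macrophages. Per the series record, PC3 cells in Matrigel were placed under the skin of male NSG mice aged 11 weeks, which then received PBS as vehicle, or 5 mg/kg of trastuzumab deruxtecan (T-DXd, directed to HER2) or patritumab deruxtecan (P-DXd, directed to HER3), once weekly by the retro-orbital route for 5 cycles. The study's methods differ from the record in the age of the mice, the number of cycles and the tumor size at first dose. Deruxtecan, carried by both antibodies, inhibits topoisomerase I. Bulk tumor RNA was sequenced at endpoint in 3 libraries a group. Sample titles name 3 PBS, 3 P-DXd and 3 T-DXd tumors, whereas the treatment field of all 6 treated libraries names the opposite conjugate. Groups therefore go by title (P-DXd-titled, T-DXd-titled), and a comparison of all 6 treated with the 3 PBS libraries was made because it does not rest on either label.

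Splicing factors of the SR family bind exonic enhancers through RNA recognition motifs and recruit the spliceosome through an RS domain. Phosphorylation of that domain sets where the proteins reside and how active they are: SRPKs act largely in the cytoplasm and favor nuclear import, and CLKs act in the nucleus and release SR proteins from nuclear speckles. Topoisomerase I itself has been described as a kinase of SR proteins, besides relaxing supercoils ahead of RNA polymerase. Many genes of this family keep their own level through poison exons or retained introns, so their mRNA exists in productive and unproductive forms. Counts per gene add these forms together.

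Facts of the whole series that touch these genes were as follows. Total counts ran from 54481702 to 125538606, and the lowest count of any member in any library was 848 (CLK4). Summed levels of 12 G2/M genes were 1143 to 1898 CPM (counts scaled to TMM-adjusted library sizes) in PBS and 165 to 292 CPM in treated libraries. All 8 epithelial markers fixed for PC3 were listed, with sums of 2867 to 3868 CPM in PBS and 4716 to 5466 CPM in treated libraries, whereas the prostate luminal markers KLK3 and KLK2 were not listed. Fibroblast markers (11 of 11 listed) summed to 1061 to 2032 CPM in PBS and 1265 to 2272 CPM in treated libraries, macrophage markers (5 of 10 listed, CD163, C1QA, C1QC, MRC1 and TYROBP not among them) to 3.92 to 6.03 and 11.5 to 21.2 CPM, and endothelial markers (6 of 8 listed, PECAM1 and EMCN not among them) to 5.05 to 10.7 and 6.58 to 11.5 CPM. Skeletal muscle markers (11 of 12 listed) summed to 5.16 to 54.1 CPM in PBS and 78.0 to 264.9 CPM in 5 treated libraries, but to 4495 CPM in P-DXd-titled replicate 2. COL1A1 was the largest part of the fibroblast sum (699 to 1399 CPM in PBS, 711 to 1242 CPM in treated libraries). By gene, 6 of 10 fibroblast markers tested were called higher in all treated libraries and 0 lower (call rule given below). Of all genes, 15.2% were called higher and 17.1% lower. The median log2 fold change of these markers was 1.08. The sources used here do not say whether mouse reads were removed. The part of host cells, and of the lower G2/M sum, in the levels of the splicing regulators was not tested, and in bulk tumors fewer cells expressing a gene and less RNA per cell cannot be told apart.

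Promoter sequence is shown for NKTR and RBM25, which were among the members with the largest decreases. It is also shown for CLK1, which was called lower, and CLK3, which was not. DDX39B, whose log2 fold change over all treated libraries (-1.49) was larger in size than that of RBM25 (-1.40), is not shown. The stretches were taken from RefSeq windows of 250 bases before the gene start (GRCh38.p14) and trimmed to the longest run free of exons of protein-coding genes in GENCODE v44. Capitals mark matches, on either strand, to any of 7 motifs searched.
NKTR, chr3:42600525-42600654, plus strand: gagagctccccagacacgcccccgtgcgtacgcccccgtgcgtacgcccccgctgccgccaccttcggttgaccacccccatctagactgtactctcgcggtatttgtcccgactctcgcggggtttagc
RBM25, chr14:73058284-73058531, plus strand: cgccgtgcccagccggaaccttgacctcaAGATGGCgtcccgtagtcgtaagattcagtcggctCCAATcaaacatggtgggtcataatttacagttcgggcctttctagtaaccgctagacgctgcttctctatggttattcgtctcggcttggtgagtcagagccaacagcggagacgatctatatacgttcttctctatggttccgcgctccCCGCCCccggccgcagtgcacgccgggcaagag
CLK1, chr2:200864692-200864811, minus strand: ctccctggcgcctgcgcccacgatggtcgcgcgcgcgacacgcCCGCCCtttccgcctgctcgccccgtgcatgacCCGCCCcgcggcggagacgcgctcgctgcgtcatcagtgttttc
CLK3, chr15:74615586-74615795, plus strand: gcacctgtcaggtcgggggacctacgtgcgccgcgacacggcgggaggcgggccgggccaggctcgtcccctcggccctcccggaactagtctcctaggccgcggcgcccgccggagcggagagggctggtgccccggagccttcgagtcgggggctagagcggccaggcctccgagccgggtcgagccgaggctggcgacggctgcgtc

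The NKTR and CLK3 stretches held none of the motifs, the CLK1 stretch held 2 SP1 matches, and the RBM25 stretch held 1 each of YY1, SP1 and CCAAT. Trimming had removed matches: the full 250-base windows held 2 CCAAT matches for NKTR and 2 SP1 matches for CLK3. The full windows of CLK1 and CLK3 therefore held the same number of SP1 matches. RefSeq windows were at hand for 31 of the 34 named genes (SRSF2, RBM39 and TRA2A being the others). Over these 31, the median GC content was 64.0% against 58.0% over 35114 promoters, and the median number of CpG was 24 against 11. The SP1 letters, GGGCGG, stood in 14 of 31 windows (45.2%, against 42.6% of all promoters), and CCAAT stood in 8 (25.8% against 32.0%). An ETS core, searched as CCGGAAG, was in 4 (12.9% against 8.52%). A TATA box, searched as TATAAA, was also in 4 (12.9% against 10.7%). NRF1 letters (GCATGCG) were in 2 windows (6.45% against 3.39%) and YY1 letters (AGATGGC) in 1 (3.23% against 3.34%). The CRE, searched as TGACGTCA, was in 0 (against 1.65%). Motifs were searched on both strands, no match of one overlapped a match of another in these windows, and the shares were not tested.

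To ask how the whole group behaved, a gene was called by edgeR's quasi-likelihood test where the adjusted p was no more than 0.05 and the change no less than 1.5-fold. With all treated libraries against PBS, 19 of 31 members were called lower, where 17.1% of the 15070 genes tested were. None was called higher (0 of 31, also with DESeq2), where 15.2% of all genes were. The median log2 fold change of the members was -0.75, against -0.01 over all genes tested. At the adjusted p alone 28 of 31 were lower, against a background of 28.7%. All 6 treated libraries lay below the lowest PBS library for 28 of 31 members, against 24.4% of all genes. Because results of these contrasts were known when the list was made, these counts describe the list and support nothing.

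The titled groups, which share the PBS libraries, were also counted one by one. For P-DXd-titled against PBS, 20 of 31 members were called lower (background 13.8%) and 0 higher (11.2%), with a median log2 fold change of -0.74 against -0.01 over all genes. For T-DXd-titled against PBS, 17 were called lower (15.5%) and 0 higher (13.1%), with a median of -0.71 against -0.02. Libraries did not overlap for 28 members (background 27.3%) and 29 members (30.4%), respectively. Without P-DXd-titled replicate 3 the P-DXd-titled count was 11, and the share of all genes called lower went from 13.8% to 6.94% in the same fit.

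**Figure D1:**
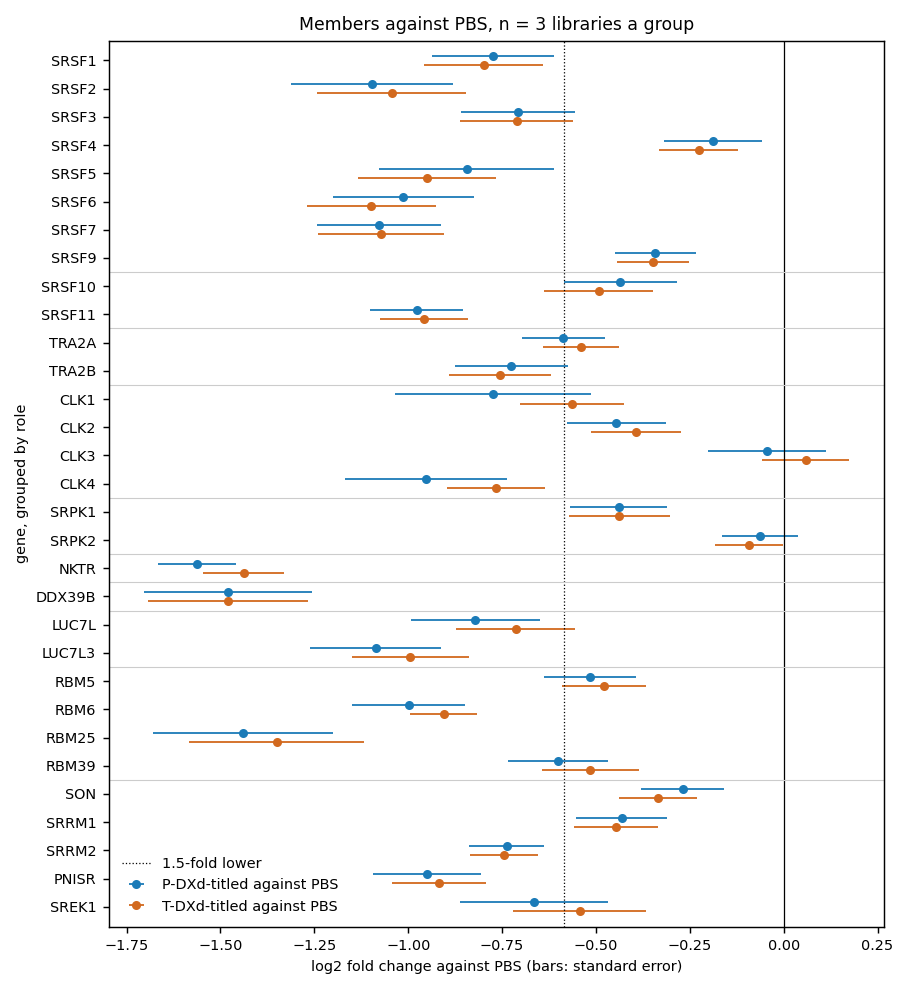
Log2 fold change against PBS of the 31 members, grouped by role, for P-DXd-titled (blue) and T-DXd-titled (orange) tumors, with standard errors as bars and 3 libraries a group. Points run from -1.56 (NKTR) to 0.06 (CLK3), and most lie left of the dotted line that marks a 1.5-fold lower level.

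NKTR, a cyclophilin with a long RS-rich tail first studied on natural killer cells, had the largest decrease. Its levels were 85.1, 80.1 and 72.3 CPM in the PBS libraries, 28.4, 26.4 and 26.0 in the P-DXd-titled libraries and 31.8, 30.3 and 26.7 in the T-DXd-titled libraries. The highest treated library was far below the lowest PBS library, and each group was tight. The fold change of all treated libraries was -1.51 (SE 0.08) on the log2 scale, -1.56 (SE 0.10) for P-DXd-titled and -1.44 (SE 0.11) for T-DXd-titled tumors. In the tables NKTR (ENSG00000114857.13) lies at chr3:42642106-42690227, and overlaps SEC22C by 467 bases. The tables name no build, whereas the study's general methods name GRCh38 for human reads. Positions in the tables are not those of GRCh38, where the NKTR promoter stretch above ends at 42600654. Spans from the tables therefore cannot be set beside the promoter stretches. SEC22C had a mean of 72.8 CPM, and the sources do not say whether strand was used in counting.

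DDX39B, a DEAD-box helicase (also UAP56) needed for spliceosome assembly and mRNA export, stood at 106, 77.2 and 63.5 CPM in the PBS libraries, 31.3, 34.3 and 23.5 in the P-DXd-titled libraries and 34.8, 29.7 and 25.4 in the T-DXd-titled libraries. Reads of its close paralog DDX39A may be shared. Groups did not overlap, with the treated mean at 36.2% of PBS and a log2 fold change of -1.49 (SE 0.16). RBM25, a regulator of alternative splicing that associates with U1 snRNP, was at 682, 434 and 359.9 CPM in the PBS libraries, 187, 198 and 162 in the P-DXd-titled libraries and 204.5, 194 and 189 in the T-DXd-titled libraries. PBS replicate 1 was well above its fellows here, and the SD in PBS (169 CPM) was the widest of the group relative to the mean (34.3%). The treated mean was 38.4% of PBS, with a log2 fold change of -1.40 (SE 0.16). The tables place DDX39B at chr6:31497996-31510225 and RBM25 at chr14:73525144-73588122.

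**Figure D2:**
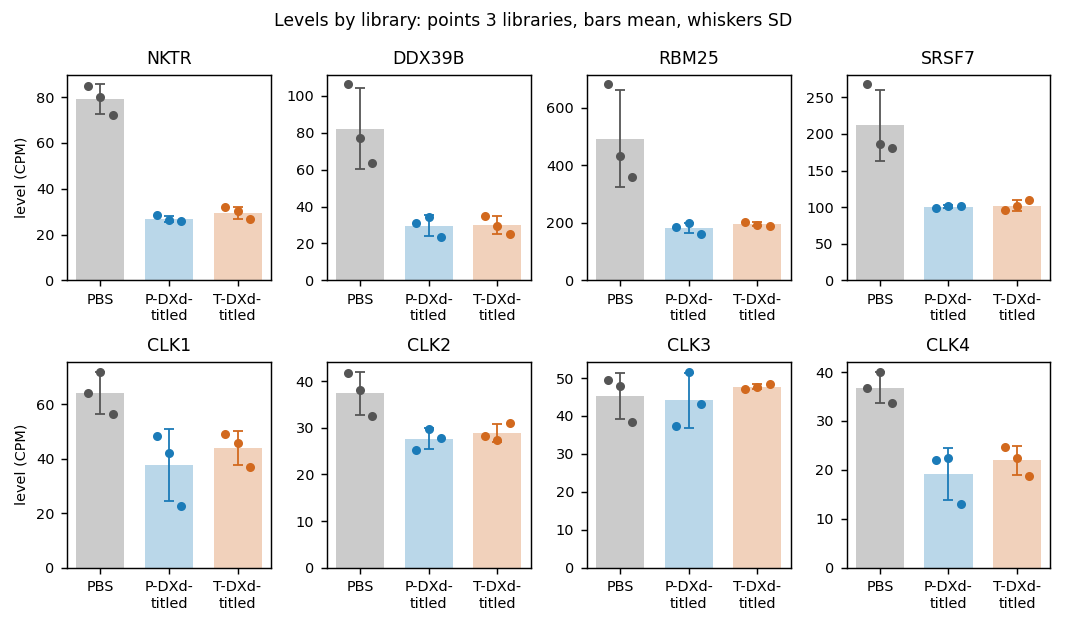
Levels (CPM, linear axis from 0) of NKTR, DDX39B, RBM25, SRSF7 and the 4 CLK kinases in each library; points are libraries 1 to 3 from left to right, bars the mean and whiskers the SD. In NKTR, DDX39B, RBM25 and SRSF7 all treated points sit well below PBS, whereas the CLK3 points overlap.

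Among the 8 classical SR proteins tested, 6 were called lower in all treated libraries and 2 (SRSF4 and SRSF9) were not called. The share of all genes called lower was 17.1%. SRSF7, an SR protein with a zinc knuckle that also serves mRNA export, was at 268, 187 and 181 CPM in the PBS libraries, 99.0, 102 and 102 in the P-DXd-titled libraries and 95.7, 101 and 110 in the T-DXd-titled libraries. All treated libraries were within 95.7 to 110 CPM and lay well below PBS, with a log2 fold change of -1.08 (SE 0.11). SRSF2, a speckle protein that activates splicing through exonic enhancers, was at 273, 178 and 164.5 CPM in the PBS libraries, 96.8, 110 and 82.4 in the P-DXd-titled libraries and 94.4, 107 and 101 in the T-DXd-titled libraries. Its log2 fold change was -1.08 (SE 0.15), but its gene overlaps MFSD11 by 1510 of its bases. SRSF6 was at 332, 228 and 221 CPM in the PBS libraries, 129, 147 and 114 in the P-DXd-titled libraries and 125, 129.5 and 116 in the T-DXd-titled libraries, with a log2 fold change of -1.06 (SE 0.13). SRSF5, which like SRSF4 and SRSF6 carries a pair of RNA recognition motifs, was at 523, 379 and 332 CPM in the PBS libraries, 194, 299 and 197.5 in the P-DXd-titled libraries and 209, 241 and 198 in the T-DXd-titled libraries. P-DXd-titled replicate 2 stood above the other treated libraries for SRSF5, though still below each PBS library, and the log2 fold change was -0.91 (SE 0.17).

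SRSF1, the founding SR protein and an oncoprotein in several tissues, was at 425, 305 and 287 CPM in the PBS libraries, 192, 203 and 203 in the P-DXd-titled libraries and 198.5, 198 and 196 in the T-DXd-titled libraries. The 6 treated libraries spanned 192 to 203 CPM, whereas the PBS libraries spanned 287 to 425 CPM, and the log2 fold change was -0.80 (SE 0.11). SRSF3, the smallest SR protein and an adaptor for mRNA export, was at 529, 374 and 381 CPM in the PBS libraries, 265.5, 268 and 256.5 in the P-DXd-titled libraries and 253, 269.8 and 273 in the T-DXd-titled libraries. Its treated libraries were closely grouped, with a log2 fold change of -0.72 (SE 0.10). Both calls rested in part on PBS replicate 1: without it the changes were -0.58 and -0.52, short of 1.5-fold.

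SRSF9 and SRSF4 had the smallest differences of the 8. SRSF9 was at 249.7, 212 and 213.5 CPM in the PBS libraries, 176, 189 and 171 in the P-DXd-titled libraries and 177, 185.5 and 175 in the T-DXd-titled libraries, all treated libraries below all PBS libraries, yet with a log2 fold change of -0.35 (SE 0.07) that did not reach 1.5-fold. SRSF4 was at 128.5, 103 and 107 CPM in the PBS libraries, 88.4, 101 and 109.6 in the P-DXd-titled libraries and 98.4, 95.2 and 99.8 in the T-DXd-titled libraries, with overlapping groups and a log2 fold change of -0.22 (SE 0.09). Compared per kilobase of the canonical GENCODE v44 transcript, PBS levels were highest for SRSF5 (275 CPM per kb) and SRSF9 (195), followed by SRSF2 (109) and SRSF3 (101). In treated tumors SRSF9 (155 CPM per kb) and SRSF5 (149) were still the most abundant members, while SRSF2 was at 52.3 and SRSF3 at 62.5. These lengths were not matched to the annotation used for counting, and counts pool all transcript forms, so the order of members is approximate.

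SRSF10 and SRSF11 are SR-related. SRSF11, which contacts U2AF, was at 192, 154 and 152 CPM in the PBS libraries, 88.9, 82.8 and 82.5 in the P-DXd-titled libraries and 90.1, 86.5 and 83.4 in the T-DXd-titled libraries. The groups were widely separated, with a log2 fold change of -0.98 (SE 0.08). SRSF10, a splicing repressor once dephosphorylated in heat shock, was at 59.8, 45.5 and 42.5 CPM in the PBS libraries, 34.2, 37.1 and 38.6 in the P-DXd-titled libraries and 37.7, 33.8 and 35.0 in the T-DXd-titled libraries. It was also lower in every treated library, with a log2 fold change of -0.47 (SE 0.11), and was not called. By the same unmatched transcript lengths, it was the least abundant member per kilobase in PBS (6.43 CPM per kb).

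The Tra2 proteins bind purine-rich enhancers and act with SR proteins. TRA2B was at 314, 232 and 237.5 CPM in the PBS libraries, 162, 172 and 143 in the P-DXd-titled libraries and 157.5, 162 and 151 in the T-DXd-titled libraries and was called lower (-0.75, SE 0.10), although without PBS replicate 1 the change was -0.58 and the call was lost. TRA2A was at 89.0, 73.8 and 84.7 CPM in the PBS libraries, 58.6, 56.1 and 51.0 in the P-DXd-titled libraries and 57.2, 61.3 and 54.1 in the T-DXd-titled libraries. At -0.57 (SE 0.08) for all treated libraries it fell just short of 1.5-fold, and it was called in P-DXd-titled (-0.59) but not in T-DXd-titled tumors (-0.54). The P-DXd-titled call was lost with no filter on low counts (-0.58), and without PBS replicate 1 (-0.53), PBS replicate 3 (-0.58) or P-DXd-titled replicate 3 (-0.53). Over all treated libraries TRA2A was called once PBS replicate 2 (-0.65) or replicate 2 of the T-DXd-titled group (-0.59) was left out. The 2 paralogs could share reads, and how the counting split such reads is not given in the sources used here.

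Of the CLK kinases, CLK4 and CLK1 were called lower over all treated libraries (17.1% of all genes were), and CLK2 and CLK3 were not. CLK4 was at 36.7, 40.1 and 33.7 CPM in the PBS libraries, 22.03, 22.3 and 12.9 in the P-DXd-titled libraries and 24.7, 22.3 and 18.7 in the T-DXd-titled libraries. It was called lower in both titled groups, with a log2 fold change of -0.86 (SE 0.17) over all treated libraries and -0.75 without P-DXd-titled replicate 3. CLK1, whose transcripts with retained introns can be stored in the nucleus, was at 64.0, 72.0 and 56.5 CPM in the PBS libraries, 48.2, 42.1 and 22.8 in the P-DXd-titled libraries and 49.0, 45.8 and 37.1 in the T-DXd-titled libraries. Its change of -0.67 (SE 0.20) was called over all treated libraries and in neither titled group alone. P-DXd-titled replicate 3 held the lowest level of both CLK1 and CLK4 among the 9 tumors, well apart from its group. Without that library the change of CLK1 was -0.54, and without PBS replicate 2 it was -0.59 with an adjusted p above the threshold, so that the call was lost in both cases.

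CLK2 was at 41.7, 38.1 and 32.5 CPM in the PBS libraries, 25.3, 29.7 and 27.9 in the P-DXd-titled libraries and 28.1, 27.4 and 31.1 in the T-DXd-titled libraries. All treated libraries were below PBS, with a log2 fold change of -0.43 (SE 0.09) that was not called, and 909 bases of its span overlap HCN3. CLK3 was at 49.5, 47.8 and 38.3 CPM in the PBS libraries, 37.4, 51.7 and 43.2 in the P-DXd-titled libraries and 47.0, 47.6 and 48.5 in the T-DXd-titled libraries, with each group overlapping the others and a log2 fold change of 0.00 (SE 0.11). Of CLK3's span in the tables (chr15:74890841-74932057), 9159 bases overlap EDC3, which had a mean of 57.4 CPM, above that of CLK3 itself. CLK1 and CLK4 are close paralogs whose reads may be shared. The tables list CLK1 at chr2:201717732-201729422, CLK2 at chr1:155232659-155248282 and CLK4 at chr5:178029665-178057616. Whether CLK3 differed from the other CLK kinases was not tested.

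The SRPK kinases were called in no comparison. SRPK1 was at 191, 152 and 145.5 CPM in the PBS libraries, 126.5, 117 and 119 in the P-DXd-titled libraries and 131, 125 and 109.8 in the T-DXd-titled libraries, lower in each treated library than in any PBS library, with a log2 fold change of -0.45 (SE 0.10) and 909 bases of overlap with LHFPL5 (0.329 CPM). SRPK2 was at 70.2, 72.3 and 84.2 CPM in the PBS libraries, 74.8, 70.5 and 72.6 in the P-DXd-titled libraries and 72.5, 72.6 and 70.2 in the T-DXd-titled libraries. It was nearly level across all 9 tumors (-0.09, SE 0.07), and 3658 bases of its span overlap KMT2E. 

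Of the LUC7-like proteins, which sit on U1 snRNP and shape the choice of 5′ splice sites, both members tested were called lower. Over all treated libraries 17.1% of all genes were. LUC7L3 was at 240.1, 192 and 159 CPM in the PBS libraries, 88.3, 106.5 and 85.1 in the P-DXd-titled libraries and 103, 102 and 95.9 in the T-DXd-titled libraries, with a log2 fold change of -1.05 (SE 0.12). LUC7L was at 47.9, 36.2 and 33.1 CPM in the PBS libraries, 20.7, 25.3 and 20.8 in the P-DXd-titled libraries and 25.1, 25.3 and 22.1 in the T-DXd-titled libraries, with a log2 fold change of -0.78 (SE 0.12). The row C7orf55-LUC7L2 was at 26.6 ± 1.00 CPM with PBS, 22.6 ± 0.881 CPM in tumors titled P-DXd and 21.5 ± 1.77 CPM in tumors titled T-DXd (mean ± SD, n = 3), a change of -0.29 (SE 0.08) that was not called.

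RBM5, RBM6 and RBM39 join RBM25 among the RNA-binding-motif proteins. RBM6 was at 93.5, 102 and 95.6 CPM in the PBS libraries, 42.5, 60.5 and 43.5 in the P-DXd-titled libraries and 55.1, 54.8 and 47.6 in the T-DXd-titled libraries. It was called lower, with a log2 fold change of -0.96 (SE 0.11), and P-DXd-titled replicate 2 was the highest of the treated libraries. Its neighbor RBM5, which affects exon choice in apoptosis genes, was at 78.6, 72.8 and 63.7 CPM in the PBS libraries, 45.7, 55.7 and 49.9 in the P-DXd-titled libraries and 54.7, 54.4 and 47.4 in the T-DXd-titled libraries. Treated libraries of RBM5 were all lower, with a log2 fold change of -0.51 (SE 0.09) that was short of 1.5-fold, although without PBS replicate 3 it was -0.59 and called. The pair overlap by 11138 bases. RBM39, a U2AF-related coactivator and the target of aryl sulfonamide degraders, was at 352, 273 and 268.5 CPM in the PBS libraries, 204, 202 and 186.5 in the P-DXd-titled libraries and 223, 209.8 and 201.5 in the T-DXd-titled libraries. Its change was -0.57 (SE 0.10), called in P-DXd-titled (-0.60) and not in T-DXd-titled tumors (-0.51). The P-DXd-titled call was lost without PBS replicate 1 (-0.46) or P-DXd-titled replicate 3 (-0.56). Over all treated libraries RBM39 was called once PBS replicate 2 (-0.63), PBS replicate 3 (-0.64) or replicate 1 of the T-DXd-titled group (-0.59) was left out.

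SON and SRRM2 form the core of nuclear speckles, and SRRM2 alone of the pair was called. SRRM2 was at 377, 353 and 322 CPM in the PBS libraries, 205, 212 and 218 in the P-DXd-titled libraries and 217, 214 and 206 in the T-DXd-titled libraries. Treated levels were within a narrow band and were called lower at -0.75 (SE 0.06), with 1125 bases of the span shared with TCEB2. SON was at 464, 404 and 376 CPM in the PBS libraries, 345, 336 and 357 in the P-DXd-titled libraries and 338, 341 and 321 in the T-DXd-titled libraries, lower throughout, with a log2 fold change of -0.31 (SE 0.08) that was not called. The span of SON overlaps DONSON by 17965 bases and GART by 874. SRRM1, a splicing and 3′-end coactivator, was at 85.3, 70.7 and 68.2 CPM in the PBS libraries, 52.1, 60.3 and 54.7 in the P-DXd-titled libraries and 58.1, 56.3 and 52.2 in the T-DXd-titled libraries, with a change of -0.45 (SE 0.09) that was not called.

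PNISR, an RS-rich speckle protein, was at 87.8, 73.2 and 65.2 CPM in the PBS libraries, 36.2, 44.1 and 37.5 in the P-DXd-titled libraries and 39.4, 42.4 and 39.6 in the T-DXd-titled libraries. It was called lower at -0.94 (SE 0.10), with no overlap of groups. SREK1, an SR-related regulator, was at 55.5, 40.6 and 36.6 CPM in the PBS libraries, 29.6, 31.7 and 22.9 in the P-DXd-titled libraries and 34.2, 30.7 and 27.5 in the T-DXd-titled libraries. The call for SREK1 was the nearest to the fold threshold (-0.61, SE 0.15, with TRA2A and RBM39 just outside it). It was lost when PBS replicate 1 (-0.40), replicate 3 of the P-DXd-titled group (-0.54) or replicate 3 of the T-DXd-titled group (-0.58) was left out. It was also lost with the digit in the title code as a block (-0.56).

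**Figure D3:**
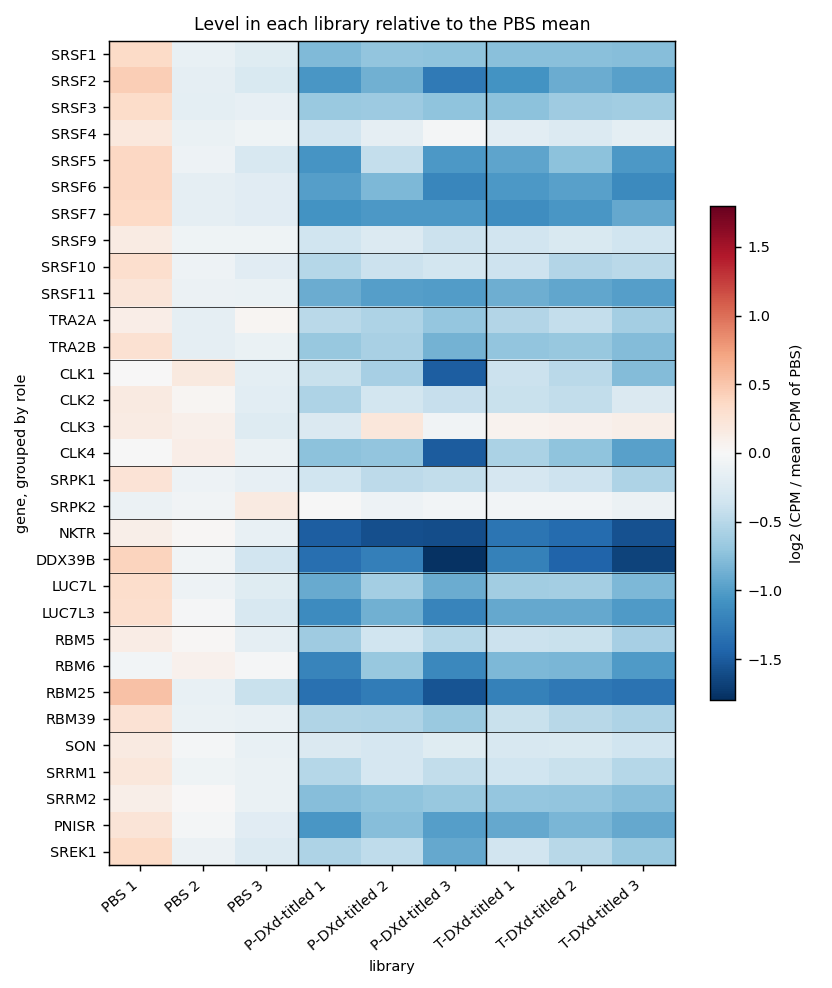
Level of each member in each of the 9 libraries, as the log2 ratio to its mean in PBS (blue lower, red higher), with genes grouped by role. Treated columns are blue for nearly all rows other than CLK3, SRPK2 and SRSF4, and PBS 1 is the reddest column.

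Tumors of one group were not alike. PBS replicate 1 held the highest PBS level for 27 of 31 members and PBS replicate 3 the lowest for 24, with median log2 ratios to the PBS mean of 0.23 and -0.17. The shares of all genes in that order were not computed. Over all genes, PBS replicate 1 differed from replicates 2 and 3 by 315.8 and 388.3 chi-square units per gene. Replicates 2 and 3 differed from each other by 37.47. PBS replicate 1 also had the highest sums of G2/M genes (1898 CPM, against 1251 and 1143), fibroblast markers (2032 CPM, against 1145 and 1061) and endothelial markers (10.7 CPM, against 6.08 and 5.05), and the lowest sum of PC3 epithelial markers (2867 CPM, against 3590 and 3868). The part of any of these in its levels was not tested. Leaving that library out brought the number called lower in all treated tumors from 19 to 15, with the share of all genes going from 17.1% to 14%, and the median log2 fold change from -0.75 to -0.58. T-DXd-titled replicate 3 was lowest of its group for 23 members, at a median ratio of -0.77. P-DXd-titled replicate 2, with the high muscle sum, was highest of its group for 20 members (median ratio -0.60), and without it 19 members were still called lower in all treated libraries, with a median of -0.75. Over members, the median coefficient of variation was widest with PBS (15.1%), then in tumors titled P-DXd (9.09%), and least in tumors titled T-DXd (5.51%). Each of the 6 treated libraries had 28 to 30 of the 31 members below the lowest PBS library. The matching share of all genes in a single treated library was not computed, so these counts stand without a background.

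Whether the conjugates differed was asked directly between the treated groups. No member was called (0 of 31 with edgeR's quasi-likelihood test and with DESeq2), where 0.0273% of 14653 genes (4 genes) were called. No member reached an unadjusted p under 0.05, which 540 of all genes did. The smallest unadjusted p was 0.157, for NKTR (29.6 ± 2.65 CPM in the T-DXd-titled group against 26.9 ± 1.25 CPM in the P-DXd-titled group, mean ± SD), with an adjusted p of 0.9998 by Benjamini-Hochberg. Log2 differences, P-DXd-titled minus T-DXd-titled, ran from -0.22 for CLK1 (95% confidence interval -0.71 to 0.27) to 0.09 for SRSF5 (-0.25 to 0.43). The intervals of 29 of 31 members lay wholly within 1.5-fold in either direction. CLK1 and CLK4 (-0.20, -0.61 to 0.21) were the exceptions, with intervals that reached past a level 1.5-fold lower in P-DXd-titled tumors. Narrow intervals were found for SRSF1 (-0.13 to 0.15), SRRM2 (-0.15 to 0.14) and SRPK2 (-0.12 to 0.15).

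**Figure D4:**
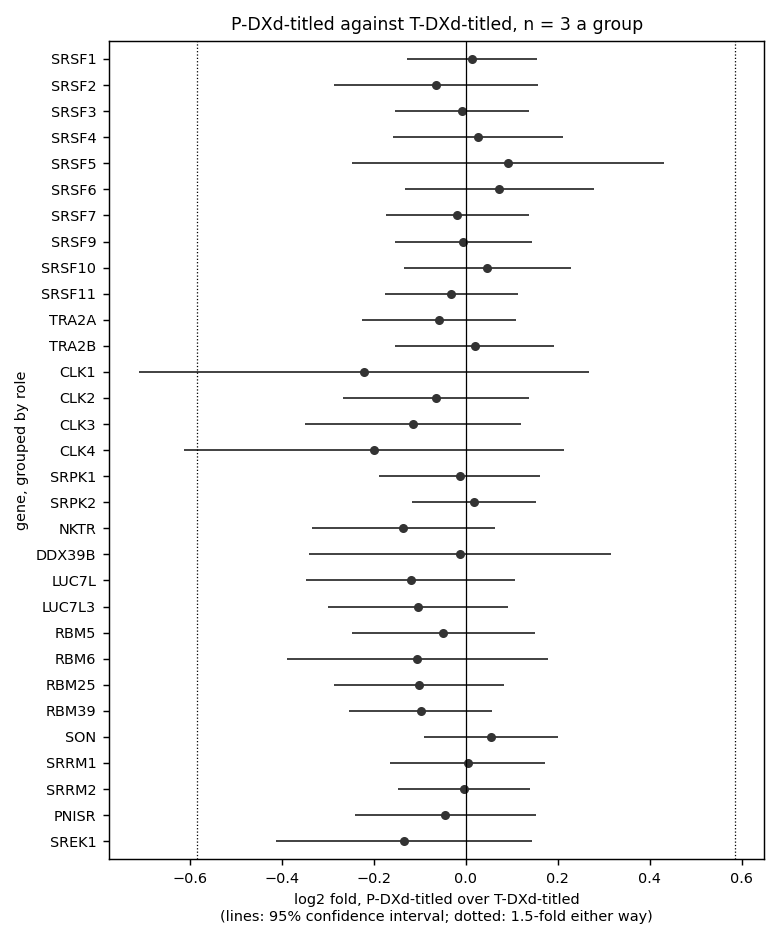
Log2 difference between P-DXd-titled and T-DXd-titled tumors for the 31 members (points) with 95% confidence intervals (lines), 3 libraries a group. Every interval spans 0, and those of CLK1 and CLK4 alone cross a dotted line that marks 1.5-fold.

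Other genes of the splicing machinery were drawn from 5 lists made for this comparison, with results of these tumors known. In all treated libraries against PBS, 11 of 21 other RS-domain and RS-rich genes were called lower and 0 higher, where 17.1% and 15.2% of all genes were, with a median log2 fold change of -0.62. CCNL2 and ARGLU1 led that list. CCNL2, a cyclin L that partners CDK11 in speckles, was at 247 ± 38.9 CPM with PBS, 80.0 ± 17.1 CPM in tumors titled P-DXd and 93.8 ± 7.70 CPM in tumors titled T-DXd, a change of -1.53 (SE 0.14). ARGLU1, a splicing coactivator, was at 94.0 ± 19.6, 38.5 ± 6.50 and 43.3 ± 3.93 CPM in the same order, a change of -1.22 (SE 0.14). Neither gene's treated libraries approached the PBS level.

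Of the hnRNP and PTB proteins, which often oppose SR proteins, 7 of 21 were called lower and 0 higher (median -0.52). HNRNPA1, a classical antagonist of SRSF1, was at 1039 ± 263 CPM with PBS, 529 ± 58.0 CPM in tumors titled P-DXd and 526 ± 16.9 CPM in tumors titled T-DXd (-1.002, SE 0.13), although its many pseudogenes may share its reads. HNRNPH1, which binds G runs, was at 412 ± 103, 234 ± 46.4 and 231 ± 13.7 CPM (-0.85, SE 0.15). Of the spliceosome core, 6 of 31 were called lower and 0 higher (median -0.29), a share not far from the 17.1% of all genes. The 2 largest changes there were in U1 snRNP proteins, SNRPA (-1.18, SE 0.14) and SNRNP70 (-0.91, SE 0.11).

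Of 18 other kinases, phosphatases and import factors of SR proteins that were tested, 2 were called higher and 3 lower (median -0.18), shares near or below the 15.2% and 17.1% of all genes. DYRK1B, a kinase linked to quiescence, was at 16.6 ± 6.34 CPM with PBS, 38.1 ± 8.07 CPM in tumors titled P-DXd and 35.0 ± 0.824 CPM in tumors titled T-DXd (1.12, SE 0.23). DYRK1A, which phosphorylates several SR proteins, was at 33.9 ± 4.65, 62.1 ± 16.8 and 55.6 ± 5.28 CPM (0.77, SE 0.16). The 3 lower genes, named after their values were seen, were SRPK3 (a mean of 36.9 counts), PRPF4B and DYRK3. TOP1, the target of deruxtecan, was at 258 ± 37.9 CPM with PBS, 203 ± 11.8 CPM in tumors titled P-DXd and 206 ± 5.90 CPM in tumors titled T-DXd, a change of -0.36 (SE 0.09) that was not called. In the nonsense-mediated decay list, whose pathway clears unproductive SR transcripts, 2 of 15 were called lower and 0 higher (median 0.02), again no larger a share than the 17.1% of all genes, namely SMG1 (-0.93, SE 0.07, a gene with close pseudogene copies) and UPF3B (-0.73, SE 0.13).

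**Figure D5:**
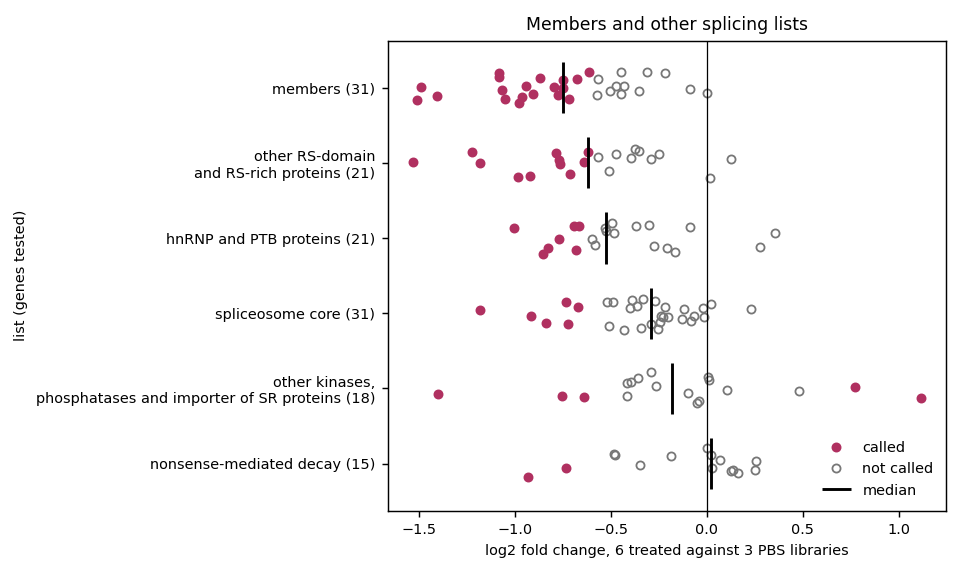
Log2 fold change of all treated against PBS libraries for each gene tested in the members and in 5 other lists; filled points were called, open points were not, and vertical bars mark medians. Medians run from -0.75 (members) and -0.62 (other RS-rich genes) to 0.02 (nonsense-mediated decay), with 2 called points above 0, both among the kinases.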

How the data were processed

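The deposited tables hold raw counts per gene, which the authors made by trimming with Cutadapt, alignment with STAR and counting with featureCounts, per the study's general RNA-Seq methods. Strand use, the handling of reads shared by paralogs and the removal of mouse reads are not given in the sources used here. Groups were taken from titles, and replicates were numbered in accession order. Replicate tumors differed by at least 17.2 chi-square units per gene, so none was a duplicate. Titles give each library its own animal code, and p-values measure the spread between these tumors.

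Counts were fitted over all genes with edgeR 4.0.16 in R 4.3.3 (TMM, filterByExpr, two-sided quasi-likelihood F test, Benjamini-Hochberg). A call needed an adjusted p at or below 0.05 and 1.5-fold, the thresholds that the study applied with DESeq2. CPM values use TMM-adjusted library sizes. Levels are given per library or as mean ± SD. The edgeR step was tested on simulated data, where it recovered the size of the change, but with 3 libraries against 3 it called fewer of the changed genes than the minimum first set, and that criterion was replaced by checks of fold size and false calls. Members and lists were chosen with earlier results of these data known. Every listed member, TOP1 and up to 2 called genes a list with the largest change (mean of at least 100 counts) were named. Alternatives were DESeq2 1.42.0, RLE size factors, other filters on low counts, other fold minimums and 1 fit of all 9 libraries. Others were a block on the digit in the title code, and leaving out each library.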

Additional observations from a re-analysis of the deposited data

How the results depend on the processing

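No member changed the sign of a called change under any alternative. Over all treated libraries against PBS, 19 members were called lower with DESeq2 and with RLE size factors (each 16.9% of all genes). The count was also 19 without a filter (16.5%) and with at least 10 counts in every library (17%). It was 18 with the digit in the title code as block (16.2%, SREK1 being lost) and 28 with no fold minimum (28.7%). Of the 19, 11 kept their call under all 16 alternatives (NKTR, DDX39B, RBM25, SRSF2, SRSF6, SRSF7, SRSF11, LUC7L3, RBM6, PNISR and SRRM2). How many of all genes called lower kept their call was not computed. Leaving out each library in turn gave 15 to 21 members called lower over all treated libraries (14% to 18.2% of all genes), 11 to 20 for P-DXd-titled (6.94% to 14.6%) and 15 to 21 for T-DXd-titled tumors (10.1% to 16.6%). The lowest P-DXd-titled count and share both came without P-DXd-titled replicate 3. Leaving out P-DXd-titled replicate 1 gave 16 members (9.51% of all genes), and leaving out replicate 2 gave 20 (9.05%). Each of these fits had 1 library fewer. With glmTreat, which tests against 1.5-fold itself, 11, 7 and 9 members were called lower, against 9.39%, 4.78% and 6.66% of all genes. With no fold minimum, 28 members were called lower in T-DXd-titled tumors (22.3% of all genes). The direct comparison of conjugates called 0 members under every alternative run, with 3 libraries a group limiting its intervals.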
